A study of Drosophila melanogaster with 48 samples.

Results

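Peaks of the transcription factor Zelda (Zld) that were called in larval fly brains of the condition titled UAS-HA-Zld, that shared no base with a peak called in the condition titled brat, and that lay between genes are described here. They were chosen from the authors' 2 peak lists: a distinct interval of the UAS-HA-Zld list on X or on either arm of chromosomes 2 and 3 was kept when no brat peak shared a base with it, its midpoint lay outside every annotated gene, and the midpoint was more than 500 bp from every gene end. There were 836 such peaks among the 8977 UAS-HA-Zld peaks on the 5 arms. The absence of a brat call and the distance to genes were what chose them, so neither is a result.

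The series holds 48 Drosophila melanogaster samples of CUT&RUN, an assay in which an antibody-tethered nuclease cuts out the DNA at a protein's binding sites. Of the 6 brain samples, 4 were made with an antibody against Zld, 2 replicates in each of the 2 conditions, and 1 peak list per condition was analysed. Both conditions carry the same genotype label, which names brat11 over DF, a UAS-HA-Zld transgene that gives HA-tagged Zld under Gal4, the driver WorGal4, whose worniu sequences are active in neural stem cells, and Tub-Gal80ts, which blocks Gal4 at low temperature. The conditions therefore differ by their titles alone, and whether the brat condition lacked the transgene is not given by its label. Third-instar larvae were moved from 18°C to 33°C for 24 h, and each reaction pooled 50 brains. The cell type label names type II neuroblasts, which binding data cannot check against expressed markers.

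Zld is a zinc finger pioneer factor: it binds DNA that is wrapped in nucleosomes and makes it accessible to other factors, and it is best known for opening the enhancers of the first genes transcribed in the fly embryo. In the larval brain it is made in type II neuroblasts, stem cells that divide through intermediate neural progenitors. Brat represses translation in the progenitors, and without it they revert to neuroblasts, so that the mutant brain fills with stem cells. Fly patterning genes and transcription factor genes often sit beside long stretches of DNA without genes that carry their enhancers, and binding between genes falls in such stretches.

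The fold enrichments, pileups and backgrounds below are values that the authors' peak caller gave, or that follow from them, for the highest summit of each peak, and they rank peaks within the UAS-HA-Zld list only. A pileup is the number of fragments over the summit, and the fold is this number against the local background, each with 1 added. The UAS-HA-Zld list held 16252 summits against 13826 in the brat list, with a median summit pileup of 208 fragments against 147. Both values depend on binding as well as on depth, and total fragments were not among the values used. By its lowest background, 1.28 times that of the brat list, the UAS-HA-Zld list appeared the deeper one. A site with no brat peak may thus have been bound in those brains at a level not detectable at that depth. With 1 list per condition no value has a replicate error and no test was run. Intervals are 95% Wilson intervals for shares and order-statistic intervals for medians, and they cover counting error only. In these pooled brains, binding in more cells and more binding per cell cannot be told apart.

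The running numbers in the brat peak names skip 1846 values, so calls with those numbers are not among the peaks analysed. A peak counted as beside a skipped number when one fell between its neighbouring brat peaks. Peaks beyond the outermost brat peaks of an arm were counted too. This was so for 399 of the 836 peaks (47.7%, 44.4 to 51.1), and at these a brat call may have existed. The same held for 765 of 1479 UAS-HA-Zld-only peaks inside genes and 373 of 654 within 500 bp of a gene end. The counts of the gene lists, the stretches described one by one and the main medians are given with and without these peaks. The remaining values include them. The names in the UAS-HA-Zld list skip 2191 values, so peaks classed as brat-only may likewise have had a UAS-HA-Zld call.

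The place of the peaks and the lack of a brat match, both set by the selection, are described first, and nothing is drawn from them. Of the 8977 UAS-HA-Zld peaks, 33.1% shared no base with a brat peak, and between genes 48.8% did (836 of 1713), values which the selection fixed. Unmatched shares were 36.3% inside genes and 20.5% near gene ends. Seen from the other side, 28.2% of all UAS-HA-Zld-only peaks lay between genes (26.6 to 29.8), against 14.6% of shared peaks (877 of 6008, 13.7 to 15.5) and 14.2% of brat-only peaks (228 of 1610, 12.5 to 16.0). Leaving out the peaks beside a skipped brat number, the share was 30.5% (437 of 1432, 28.2 to 33.0). DNA more than 500 bp from every gene made up 25.5% of the bases, 33.7 Mb.

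**Figure D1:**
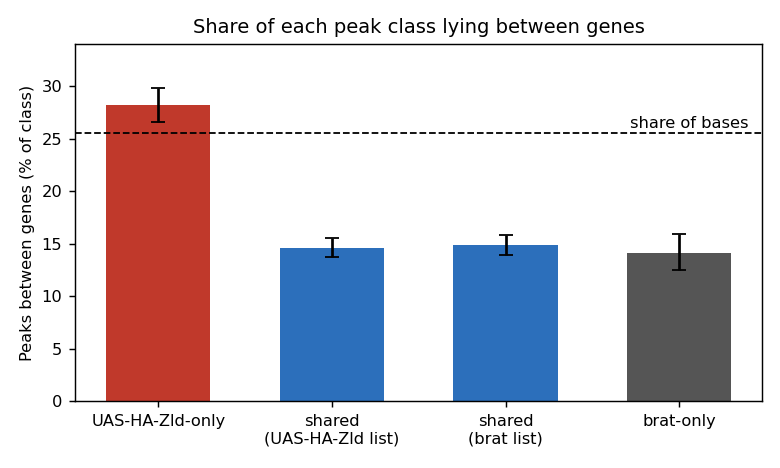
Share of each peak class whose midpoint lay between genes, in % of the class; bars are shares, error bars are 95% Wilson intervals for counting error, and the dashed line is the share of bases in that territory. The UAS-HA-Zld-only bar stands at 28.2% and the other 3 between 14.2% and 14.9%.

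The same description can be given by strength. The UAS-HA-Zld peaks were divided into 5 equal classes of −log10 q, the caller's measure of confidence. In the weakest class 69.9% of peaks between genes were unmatched, against 60.5% inside genes and 42.2% near gene ends. In the middle class the shares were 55.0%, 36.4% and 17.6%, and in the strongest 20.5%, 10.9% and 5.08%. The strongest class held 69 of the 836 peaks and the weakest 239. In the brat list 20.7% of peaks were unmatched between genes, 20.1% inside genes and 23.0% near gene ends.

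The peaks were spread over all 5 arms. There were 174 on 2L, 105 on 2R, 245 on 3L, 184 on 3R and 128 on X, or 28.3, 15.0, 28.8, 25.8 and 25.8 per Mb of DNA between genes. Shared peaks between genes were likewise sparsest on 2R, at 19.3 per Mb, and densest on 3L, at 31.9 per Mb. The UAS-HA-Zld-only peaks were the more numerous class on 2L and X, where 53.0% and 54.7% of the peaks between genes were unmatched.

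Within the UAS-HA-Zld list these peaks were weaker and narrower than the shared peaks of the same territory. The classes were set by overlap with a brat peak, and weaker peaks were matched less often. The differences are therefore not independent of the selection and are descriptions. Their median fold enrichment was 3.22 (3.10 to 3.38), with quartiles of 2.37 and 4.82 and a range of 1.37 to 35.3. Shared peaks between genes had a median of 4.69 (quartiles 3.08 and 7.92), and UAS-HA-Zld-only peaks inside genes one of 3.01 (2.16 and 4.45). The quartile ranges of all 3 classes overlapped. The median summit pileup was 175 fragments against 325 in the shared peaks between genes, and the median background 53.0 against 67.1, so that the lower fold came with fewer fragments at the summit and not with a higher background.

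A minority were strong. A fold of at least 5 was reached by 190 peaks (22.7%, against 46.4% of the shared peaks between genes), and a fold of at least 10 by 38 (4.55%, against 15.7%). Of the 437 peaks with no skipped brat number beside them, 94 and 18 reached these folds, and their median fold was 3.17. Median width was 471 bp, against 624 bp in the shared peaks between genes, and 37.8% held several summits, against 50.2%.

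**Figure D2:**
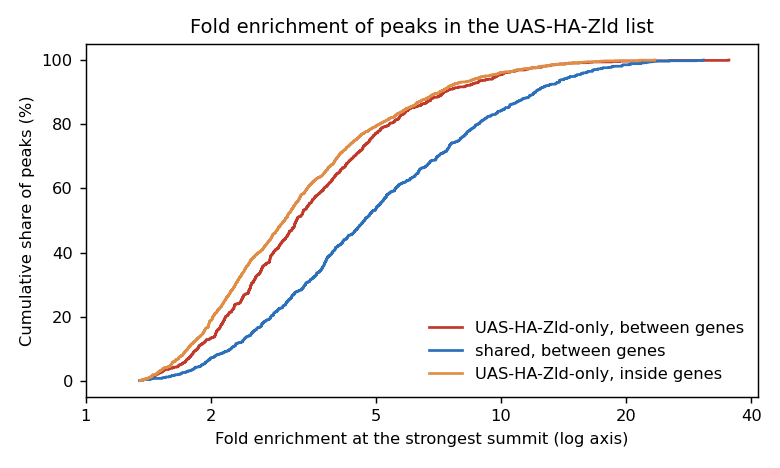
Cumulative share of peaks, in %, by fold enrichment at the strongest summit on a log axis, for 836 UAS-HA-Zld-only and 877 shared peaks between genes and 1479 UAS-HA-Zld-only peaks inside genes. The curve of the shared peaks lies to the right, with a median of 4.69, and those of the UAS-HA-Zld-only peaks run close together, with medians of 3.22 between genes and 3.01 inside them.

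Distances to the nearest brat peak ranged widely. The median gap between interval edges was 2878 bp, with quartiles of 985 and 8869 bp, and it was 2282 bp without the peaks beside a skipped brat number. A gap of at most 1 kb was found for 210 peaks (25.1%), one of 1 to 10 kb for 435 (52.0%) and one of over 10 kb for 191 (22.8%), of which 18 were over 50 kb. For 203 of the 210 closest peaks (96.7%, 93.3 to 98.4) the neighbouring brat peak was itself matched in the UAS-HA-Zld list. These 203 stood beside a site called in both conditions. Most brat peaks were matched in any case. Of all brat peaks 21.4% were unmatched (1610 of 7507, 20.5 to 22.4), and of those between genes 20.7% (228 of 1104, 18.4 to 23.1). A matched neighbour was thus the usual case, though its share was higher here than the matched share of brat peaks. The first share counts UAS-HA-Zld-only peaks and the second brat peaks, and the difference was not tested. UAS-HA-Zld-only peaks inside genes had a median gap of 2730 bp, within the interval of the median between genes (2497 to 3462 bp).

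**Figure D3:**
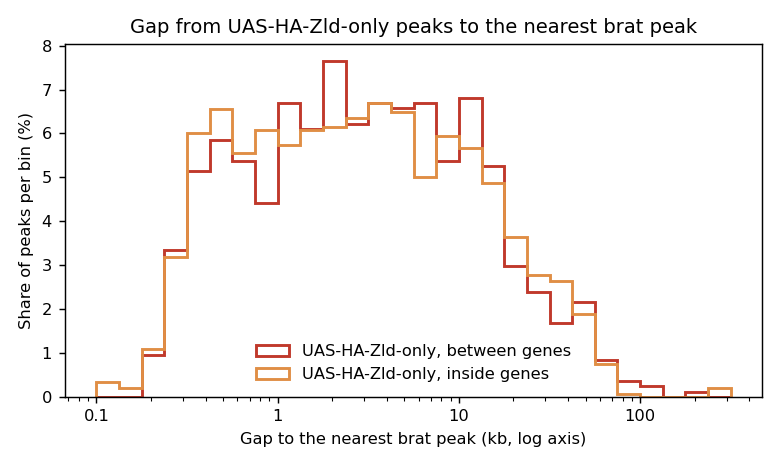
Gap from each UAS-HA-Zld-only peak to the nearest brat peak in kb on a log axis, as the share of peaks per bin in %, for peaks between genes and inside genes, with the few gaps beyond either end of the bins counted in the end bins. The outlines overlap over the whole range, and 52.0% of the peaks between genes lie at 1 to 10 kb.

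The nearest brat peaks were 197 bp away, in the stretch from PsGEF to CG12496, and 208 bp away from plh to corto and from can to Or67d. The farthest was 190.92 kb away, at X:54291-54498 in dm6, between SteXh:CG42398 and CG17636, and this peak was also the farthest from any gene, at 52.214 kb. The next stood on both sides of CG4480 on 2L, at 127.837 and 121.61 kb. The peak on X counted as beside a skipped brat number only because no brat peak lay between it and the start of the arm. Both peaks by CG4480 also lay beside skipped numbers. The folds of these 3 isolated peaks were modest, 3.18, 3.14 and 3.66.

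Another peak of the set lay within 5 kb of 491 of the 836 (58.7%, 55.4 to 62.0), and of 55.6% of those with no skipped brat number beside them. Shared peaks between genes had another of their own kind within 5 kb in 56.0% of cases (52.7 to 59.2), an interval that overlaps the first. A shared peak of any place lay within 5 kb of 485 of the 836 (58.0%, 54.6 to 61.3), and another shared peak within 5 kb of 72.4% of the shared peaks between genes (69.4 to 75.3). When the genome was divided into stretches between neighbouring protein-coding genes, the 836 peaks fell into 398 of them. A single peak was in 215 stretches, 2 or more were in 183, which held 621 peaks, and 5 or more in 34, which held 227. A shared peak lay in 240 of the 398 stretches (60.3%), and in 31 of the 34 richest. Within a stretch, shared peaks were counted at any place between its protein-coding genes, also near gene ends or in noncoding genes. No brat peak at all lay in 143 stretches (35.9%), which held 206 peaks. Of these 143 stretches, 38 held 2 or more, with 101 of the 206 peaks between them.

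Stretches of 20 kb or more held a peak in a larger share than shorter ones, while the density was lowest in the longest. A peak was present in 48 of 1914 stretches of 1 to 5 kb (2.51%), 105 of 497 of 10 to 20 kb (21.1%), 137 of 395 of 20 to 50 kb (34.7%) and 36 of 114 of 50 kb or more (31.6%). Per Mb there were 21.1, 28.2, 31.4 and 10.4 peaks in these classes. Shared peaks per Mb were 39.0, 29.6, 29.8 and 10.8 in the same order. Shared peaks were thus densest in the shortest stretches, where the UAS-HA-Zld-only peaks were not.

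The strongest peak of all, at 3L:14965689-14966789, lay 3.105 kb from Tom in the stretch from BobA to Tom. Both genes encode Bearded-family proteins, which restrain Notch signalling by inhibiting the endocytosis of its ligand. Its fold was 35.3, from 1381 fragments over a background of 38.1. The same 23.2 kb held 5 further peaks of the set, with folds of 13.2, 13.1, 10.1, 2.46 and 2.05, and 1 shared peak. None of the 6 lay beside a skipped brat number. The stretch alone held 4 of the 38 peaks with a fold of at least 10.

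Transcription factor genes stood beside 5 others of the 10 strongest. At 2L:3610390-3611398, 4.138 kb from odd, a pair-rule zinc finger gene that patterns the embryonic segments, the fold was 16.2. At 2L:18890321-18891008, in the stretch from tup, which encodes a LIM-homeodomain protein of motor neurons and heart, it was 19.3. At 2R:24847504-24848608, between Dll, the homeodomain gene of limb formation, and CG3650, it was 16.5. The peak by Dll stood at the far end of its stretch, 12.389 kb from Dll and 0.938 kb from CG3650. At 2L:15481929-15482522, 2.504 kb from Tim17b2 and 3.965 kb from sna, it was 18.5. The sna gene encodes a zinc finger repressor that specifies mesoderm and is a relative of the neuroblast gene wor. At 2L:8841360-8842315, 12.167 kb from SoxN, a SoxB gene of the early neuroectoderm, the fold was 13.6. Of these 5, the peak by odd lay beside a skipped brat number and the other 4 did not.

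The remaining 4 of the strongest lay beside genes of other kinds. The second in rank, at 3R:5109154-5110329, was 0.563 kb from CG43131 and had a fold of 25.4 from 1521 fragments, the highest pileup of the set. The third, at 3L:15222573-15224267, was 12.199 kb from Tollo, a Toll-family receptor, with a fold of 23.7. One at 2R:19804151-19804794 lay between the odorant-binding protein genes Obp56g and Obp56h, with a fold of 11.7. These 3 lay beside skipped brat numbers. The last, at X:20752443-20754054, was 7.283 kb from CG15452 and 7.823 kb from shakB, an innexin gene of electrical synapses. Its fold was 15.4, with no skipped number beside it. The gap from the 10 strongest to the nearest brat peak ran from 0.321 kb for the peak by sna to 5.454 kb for that by Tollo.

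The 5 stretches with the most peaks held 10 or 11 each, and shared peaks in every one. From plh to corto on 3R, which ends at the gene of the chromatin protein Corto, 66.7 kb held 11 peaks with folds of 1.38 to 9.58 beside 16 shared peaks. From CG42710 to SoxN on 2L, 43.1 kb held 11 with folds of 2.06 to 3.98 beside 11 shared peaks. On the other side of SoxN, 6 more had folds of 2.17 to 13.6, so that 17 flanked this gene, the most for any listed gene. No skipped brat number lay beside the 11 peaks by corto, nor beside 6 of the 11 to the left and all 6 to the right of SoxN.

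From run to CG1324 on X, 37.1 kb held 10 peaks with folds of 1.85 to 4.36 beside 3 shared ones. The gene run encodes a Runt-domain transcription factor of pair-rule patterning and neurons. On its other side 5 more had folds of 2.49 to 6.42. Skipped brat numbers lay beside 6 of the 10 and all of these 5, so that the concentration by run rested largely on peaks for which a brat call may have existed.

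The 2 other stretches lay in the region of the cell death genes on 3L, whose products block the inhibitors of caspases. From CG7320 to CheA75a, 48.5 kb held 10 peaks with folds of 2.17 to 7.44 beside 8 shared ones. From grim to rpr, 93.1 kb held 10 with folds of 1.42 to 6.81 beside 4 shared ones, and 1 of them, 35.802 kb from rpr, was among the 3 farthest from any gene. The whole region from CG13699 to CG32196, 3L:18162523-18459463, contains hid, grim, rpr and skl and was singled out after these values were seen. Its 297 kb held 28 peaks with a median fold of 3.69, and 23 of them lay beside no skipped brat number. The UAS-HA-Zld list had 53 peaks in that region and the brat list 26, of which 1 was brat-only.

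**Figure D4:**
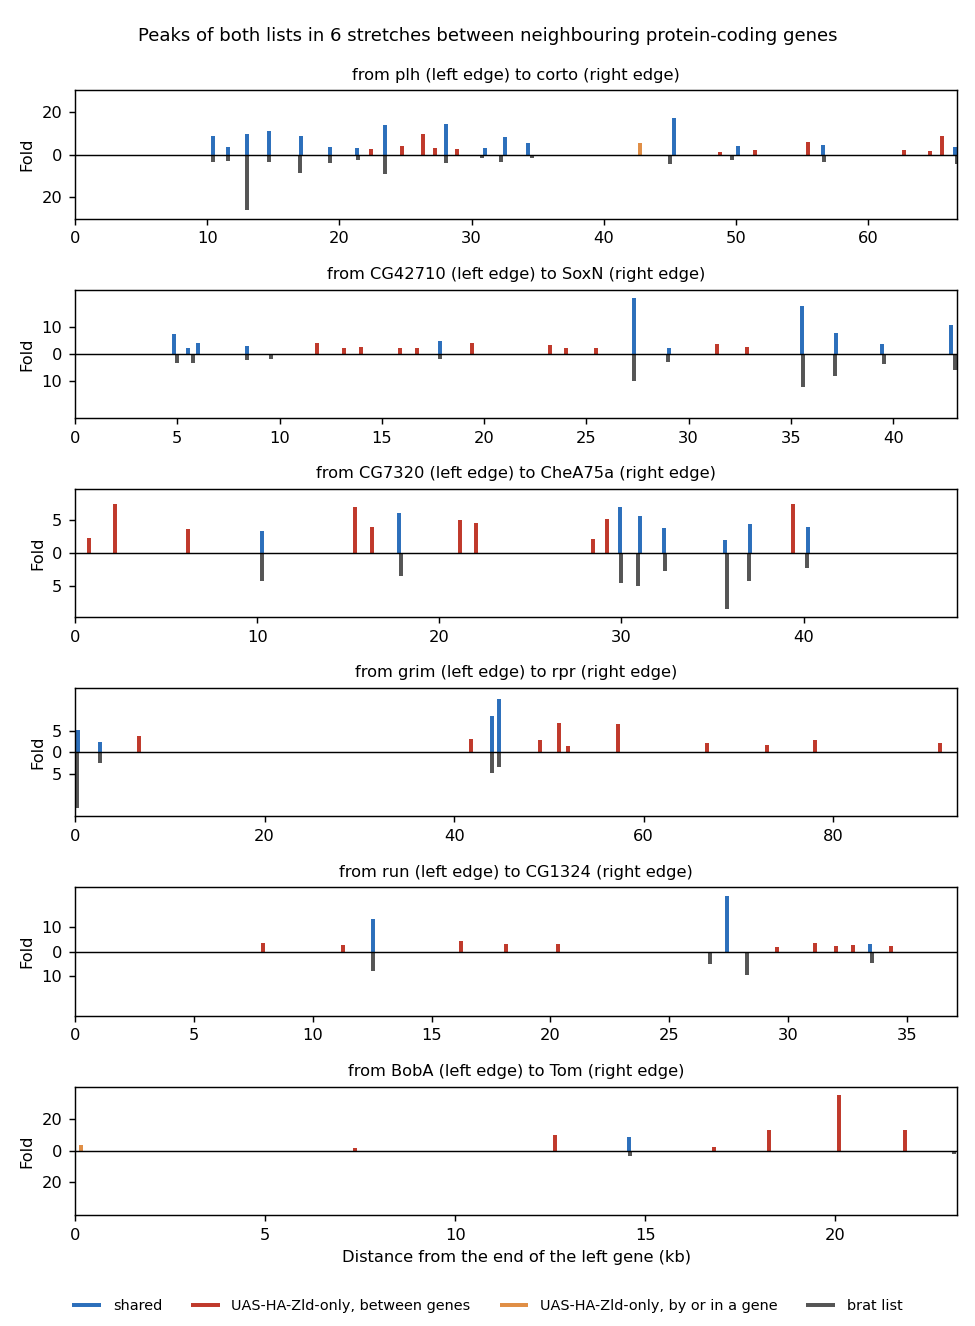
Peaks along the 5 richest stretches and the stretch from BobA to Tom, by distance from the end of the left gene in kb; bars upward are UAS-HA-Zld folds (red, UAS-HA-Zld-only between genes; orange, UAS-HA-Zld-only by or in a gene; blue, shared) and bars downward are brat folds, which are not on a common scale with them. The red bars of the 5 stretches stay below a fold of 10. From grim to rpr, red bars continue past the last blue one, at 44.7 kb, as far as 91.3 kb. The tallest red bar, 35.3, is the peak by Tom.

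The peaks flanked 700 protein-coding genes, a gene counting as flanking when it was the nearest protein-coding gene on either side. Shared peaks between genes flanked 812, and 384 genes flanked both, 54.9% of the first set and 47.3% of the second. Among genes beside a stretch of over 1 kb, 13.1% flanked one of the 836 peaks and 15.2% a shared peak. Beside a stretch of 20 kb or more these shares were 38.9% and 40.7%, so that a list of genes in long stretches starts from a high level. Without the peaks beside skipped brat numbers, 7.55% and 23.7% of these genes flanked a UAS-HA-Zld-only peak. A brat peak in the gene itself or within 500 bp of it was found for 290 of the 700 genes (41.4%, 37.8 to 45.1), against 343 of 889 genes beside 20 kb or more (38.6%, 35.4 to 41.8), where the intervals overlap, and 31.6% of all protein-coding genes. Among genes flanking a shared peak it was 50.0% (46.6 to 53.4). The lists of genes below were written with earlier results of these data known, and their counts are descriptions. A peak counts for the genes on both its sides, so counts of neighbouring listed genes, such as wg and Wnt6, are not independent.

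Genes that pattern the embryo were often flanked. Gap genes, which divide the embryo into broad domains, were flanked in 9 of 10 cases among those beside a stretch of over 1 kb: hb, kni, gt, tll, hkb, cad, oc, ems and btd, with knrl the exception. Shared peaks flanked 8 of these 10. The highest fold by a gap gene was 9.52, by gt, and the member of highest confidence was 3.337 kb from hb, which encodes a zinc finger factor that also acts early in embryonic neuroblasts, with a fold of 8.98 at 3R:8700660-8701659. Pair-rule genes were flanked in 8 of 9 cases, all but prd, and shared peaks flanked 5 of the 9. Among those beside 20 kb or more all 6 were flanked, and 4 were flanked by shared peaks. After the 16.2 by odd, the highest folds were 12.2 by hry and 10.2 by slp2, which encode transcription factors of segmentation, while eve, the homeodomain gene, had 2 peaks with a highest fold of 5.39. Without the peaks beside skipped brat numbers, 8 gap genes and 6 pair-rule genes were flanked.

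Segment polarity, dorsoventral and Hox genes were flanked in lower shares of their lists. Segment polarity genes had 5 of 9 flanked, against 7 by shared peaks, with low folds up to 3.14, such as 3.07 in the stretch between the homeodomain genes inv and en. Dorsoventral genes had 4 of 12, zen2, twi, sna and Doc3, against 2 by shared peaks. The sna gene had 8 of the peaks and 1 shared peak between genes. With shared peaks of any place counted, the stretches on its left and right held 2 and 1. Hox genes, which set segment identity, had 2 of 8, with 1 peak each, against 1 by shared peaks. The UAS-HA-Zld-only peak by lab, 1.105 kb from it, had a fold of 5.55. Without the peaks beside skipped brat numbers, 4 segment polarity, 3 dorsoventral and 2 Hox genes were flanked. Neither of the 2 cellularisation genes beside such a stretch, slam and sisA, was flanked by either class.

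Type II neuroblast genes were flanked by both classes of peaks in equal number. Of 10 type II neuroblast genes 8 were flanked by each class: dpn, wor, klu, tll, btd, Sp1, zld and insc by the UAS-HA-Zld-only peaks. The strongest, at 3R:30842649-30843231, had a fold of 7.29 and lay 0.906 kb from CG15544 and 9.375 kb from tll, which encodes an orphan nuclear receptor of type II identity. It was 237 bp from a brat peak and lay beside a skipped brat number. The zinc finger genes Sp1 and btd, which specify the type II fate, had 9 and 7 peaks, 7 of them in the 32.1 kb between them, but 1 of those 7 lay beside no skipped number. Without the peaks beside skipped numbers, 7 of the 10 genes were flanked. Low folds were found by dpn (2.29), insc (1.74) and zld itself (2.50). The worniu gene wor, whose sequences drive Gal4 here, had 3 peaks with a highest fold of 5.35.

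Intermediate progenitor genes had 4 of 7 flanked, erm, opa, D and Fer1, against 3 by shared peaks. The highest fold was 10.9, at 3L:14139152-14139797, 8.15 kb from Sox21b and 36.136 kb from the SoxB gene D. Temporal patterning genes, which mark the age of a neuroblast, had 4 of 10, Imp, Eip93F, cas and nub, against 8 by shared peaks. The strongest of these, with a fold of 7.22, was 1.387 kb from cas, a zinc finger gene of late embryonic neuroblasts. Of each of these 2 lists, 3 genes were flanked without the peaks beside skipped numbers. Of the Notch genes 3 of 13 were flanked, Tom, Delta and E(spl)m5-HLH, against 4 by shared peaks. Delta, the Notch ligand, had 3 peaks with a highest fold of 6.58 and no shared peak. Without the peaks beside skipped numbers, Tom was the only Notch gene still flanked.

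Homeobox genes outside the Hox clusters formed the largest list, with 23 of 29 flanked against 22 by shared peaks, and 66 of the 836 peaks beside them. Beside 20 kb or more, all 14 were flanked, against the 38.9% of all genes there. Shared peaks flanked 13 of these 14, against 40.7% of all genes there. Without the peaks beside skipped brat numbers, the count of homeobox genes flanked by a UAS-HA-Zld-only peak fell from 23 to 15. The POU-homeodomain gene vvl had 14 peaks with a highest fold of 12.5, Lim1 6 with 7.90, hth 6 with 5.31, and ap and Dll 4 each with 12.5 and 16.5. Beside no skipped brat number lay 2 of the 9 peaks from vvl to Prat2 and 4 of the 5 from Rsph3 to vvl. So did 2 of the 4 from CG1789 to Lim1, all 3 from Dll to CG3650 and the 1 from hth to CG6465. All 4 by ap, all 5 from Cyp12e1 to hth, both from Lim1 to CG12075 and the 1 from CG42851 to Dll lay beside skipped numbers. T-box and Sox genes had 7 of 14 flanked, against 6 by shared peaks. All 7 were flanked also without the peaks beside skipped numbers.

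Ligand and guidance genes were flanked in lower shares than the homeobox genes. Of 15 signalling ligand genes 9 were flanked, against 7 by shared peaks, and 5 without the peaks beside skipped brat numbers. The 9 were wg, Wnt2, Wnt4, Wnt6 and Wnt10, vn, and the 3 upd genes, which encode the ligands of JAK/STAT signalling. The upd genes on X had the strongest ligand peak, at X:18263794-18265559, with a fold of 13.8 in the stretch from CG15059 to upd3. This stretch of 17.7 kb held 5 peaks, with folds of 13.8, 8.54, 3.18, 2.66 and 2.37, and the 20.8 kb between upd3 and upd1 held 4, with 6.18, 4.90, 4.72 and 2.38. Neither stretch held a brat or a shared peak, and all 9 peaks lay beside skipped brat numbers. Axon guidance and surface genes had 6 of 23 flanked, against 4 by shared peaks, and 3 without the peaks beside skipped numbers. Their highest fold was 10.1, 1.443 kb from robo2, a receptor for Slit.

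Of the short lists of genes of differentiated cells, at most 1 gene each was flanked, too few to set apart from the 13.1% of all genes. Neuronal genes had 1 of 7, pros, a homeodomain gene that ends neuroblast self-renewal: 8 peaks lay in the 81.6 kb from CG5214 to pros beside 25 shared ones. The strongest of them, with a fold of 4.65, had as its nearest gene end that of the long noncoding RNA cherub, known from brat tumours, 2.921 kb away. That peak lay beside a skipped brat number. No glial gene (0 of 6), muscle gene (0 of 8) or tracheal gene (0 of 5) was flanked, and shared peaks flanked 1 in each of these lists. The fat body list had 1 of 5, the larval serum protein gene Lsp1gamma, with a fold of 3.64. The 2 flanked genes were flanked also without the peaks beside skipped numbers. In these lists 1 gene in all was beside 20 kb or more apart from pros. Whether the short stretches account for the low counts was not tested.

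Over all 19 lists 87 of 189 listed genes beside a stretch of over 1 kb flanked a UAS-HA-Zld-only peak, and 47 of 68 beside 20 kb or more. Over all protein-coding genes the shares were 13.1% and 38.9%. Because the lists were written with earlier results known, the difference is a description. A listed gene flanked 240 of the 836 peaks and 193 of the 877 shared peaks between genes. For 27 of the 87 genes no shared peak between genes was present.

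**Figure D5:**
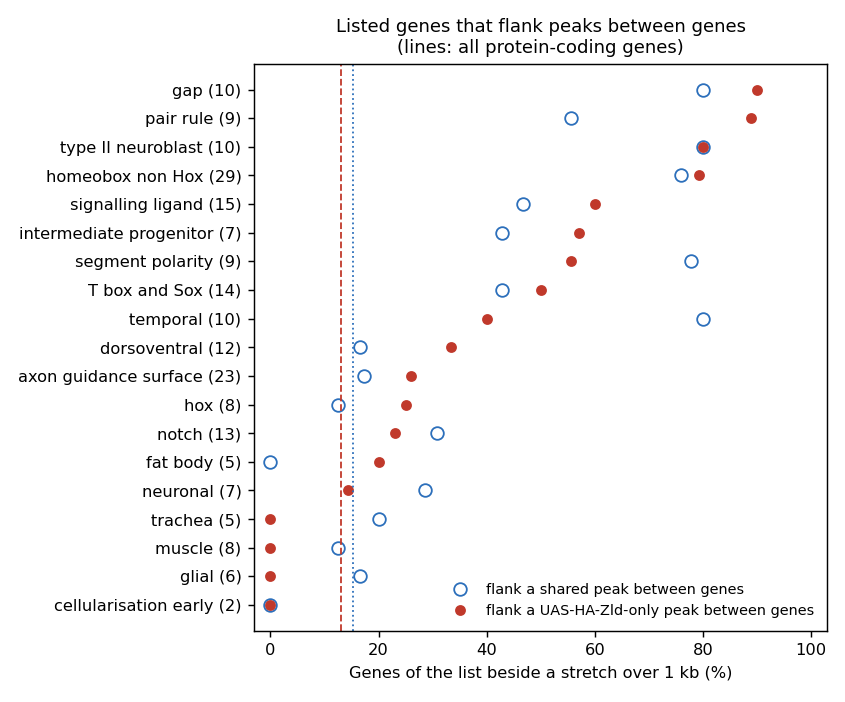
Share of the genes of each list, among those beside a stretch of over 1 kb (number in brackets), that flank UAS-HA-Zld-only (filled) or shared (open) peaks between genes, in %; the lines give the same shares over all protein-coding genes, 13.1% (dashed) and 15.2% (dotted). Gap, pair-rule, type II neuroblast and homeobox genes lie farthest right, and glial, muscle and tracheal genes at 0 for the UAS-HA-Zld-only peaks.

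The gene end nearest to a peak was that of a protein-coding gene for 551 peaks, of a long noncoding RNA for 254, of a tRNA for 13, of an antisense RNA or a pseudogene for 6 each and of a miRNA or snRNA for 3 each. Noncoding and antisense RNA ends were nearest for 31.1% of the peaks, against 31.5% of the shared peaks between genes (28.5 to 34.6). The median distance to the nearest gene end was 3376 bp, and 114 peaks (13.6%) were more than 10 kb from any.

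Folds of the 3 peaks next to the 500 bp limit on either side were of the same order. As a class, UAS-HA-Zld-only peaks within 500 bp of a gene end were weaker. Their median fold was 2.47 (2.37 to 2.57), against 3.22 for the 836 peaks, and 11.8% reached a fold of at least 5, against 22.7%. Just over 500 bp from a gene end were peaks at 507 bp from CG34429, 515 bp from bab1 and 517 bp from the photoreceptor gene cry, with folds of 2.76, 3.56 and 7.06. Just under it were unmatched peaks at 485 bp from CG15572, 482 bp from Fum3 and 480 bp from a noncoding RNA gene near bib, with folds of 2.42, 6.29 and 3.91. The least confident peaks, from tbrd-2 to rib, from Or56a to Obp56g and from AOX4 to CG43335, had −log10 q values of 1.32, 1.32 and 1.42 and folds of 1.37, 1.37 and 1.42.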

How the data were processed

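Fragments had been aligned with Bowtie2 to the build dm6, peaks called with MACS2 and tracks made with deepTools 3.5.1, per the submitters' processing notes. The control, the pooling of replicates and any filters were not stated there or in the labels. The authors deposited 1 narrowPeak list per condition, whose columns hold a score, a fold enrichment (ratio), the −log10 of the p-value and q-value, and the summit position. A peak was 1 distinct interval, and its values were taken from the summit of highest −log10 q. An overlap of 1 bp or more counted as a match. Pileup and background were solved from the deposited fold and −log10 p under the caller's Poisson test: 100% of summits gave a whole pileup (relative tolerance 0.0001). The solver and the classing of peaks were tested on simulated data. Where the lists placed a summit on an identical base (196 summits), the backgrounds had a median ratio of 1.45.

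Genes came from a RefSeq table of the same build, without strand or exons. It lists 17570 genes for the 5 arms, including 13842 protein-coding ones. Exons, introns and UTRs were therefore not assigned. The 230 listed genes were matched by symbol, 3 of them under another symbol. Listed peaks and genes were named by a rule: the 10 peaks of highest −log10 q, the members of the 5 richest stretches, the member of highest −log10 q for each gene list, the 3 nearest to and farthest from a brat peak, the 3 farthest from a gene, the 3 of lowest −log10 q and the 3 on either side of 500 bp. Other listed genes, the other peaks of the named stretches and the cell death region were picked after their values were seen. The peaks and lists were chosen with earlier results of these data known. The genome's sequence was not used here, so a planned motif count was not made. The analysis used Python 3.11.15, pandas 2.3.3, numpy 2.4.6, scipy 1.17.1 and statsmodels 0.14.6.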

Additional observations from a re-analysis of the deposited data

How the results depend on the processing

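Of 49 recomputed values, 43 stayed within 1.5 times the reported count or within its counting interval, and 6 moved. Without the peaks beside a skipped brat number, an alternative chosen after seeing the data, the count of UAS-HA-Zld-only peaks between genes was 437, the median gap to a brat peak 2282 bp and the number of flanking genes 402. With no brat peak allowed within 1 kb, the median gap was 5008 bp and 51.8% of peaks had another within 5 kb. That share was 69.9% at 10 kb. The count was 646 with lists of equal length, 703 at a −log10 q of at least 10, 572 beyond 2 kb from gene ends, 990 with protein-coding genes alone, and 826 or 819 after scaling to the brat depth by either background ratio, also added after seeing the data. No paired analysis was possible because each condition has 1 list that carries no replicate number, and for the same reason no replicate could be left out. The planned motif alternatives were not run. Depth limits the brat calls, whose level at these sites is unknown.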

Other observations

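The stretch from CG43082 to CG7304 on 3L, 17.4 kb long, held 5 UAS-HA-Zld-only peaks with folds of 1.79 to 4.44 and no brat peak, and all 5 lay beside skipped brat numbers. From CG11279 to CG14115 on 3L, 11.5 kb held 5 peaks with folds of 1.82 to 7.42 beside 1 shared peak, none of them beside a skipped number, and their density of 4.36 per 10 kb was the highest among the 34 stretches with 5 or more. From comm, a regulator of axon crossing at the midline, to CG6244, 79.9 kb held 9 peaks with folds of 1.63 to 6.04 and 8 shared ones, none beside a skipped number. These stretches were picked after their values were seen.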
